A study of Mus musculus with 9 samples.

Results

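The 10 genes described here encode tetraspanins of microglia: Cd9, Cd63, Cd81, Cd82, Cd53, Cd37, Cd151, Tspan3, Tspan4 and Tspan14. They were chosen by name, as tetraspanin genes of microglia, and not by a cut on a measured value. Earlier results of these data were known when they were chosen. All 10 are among the 22036 genes in the deposited expression table, and all 10 passed the filter on low values, a normalized count of at least 10 in at least 3 libraries, which left 14955 genes for testing. The expression values come from RNA sequencing of flow-sorted brain microglia, the macrophages that live in the brain, of wild-type female C57BL/6 mice at 3 ages, which the study compared as a course of ageing. The groups were young mice of 6 months, middle-aged mice of 15 months and old mice of 23 months, and the labels name no treatment. Each age had 3 libraries, and RNA in each library came from microglia of 3 mice pooled before extraction, so that a value averages animals and the spread between libraries is one between pools. Neither the gate of the sort nor read totals are stated in the sources, so the depth behind each value is unknown.

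Tetraspanins are small proteins that cross the membrane several times and gather other proteins beside them, among them integrins, immunoglobulin-family receptors and proteases, into membrane domains. Some, such as CD9 and CD81, act mainly at the cell surface, while CD63 cycles between the surface and late endosomes and lysosomes and is carried on the vesicles that cells release from these compartments. Several are leukocyte genes, and Cd9 and Cd63 are both known from the genes that activated microglia express around amyloid plaques and in other disease models.

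Values are given on the log2 scale of normalized counts, as deposited. Normalized counts in this text, also in the filter and per kilobase, are 2 to the power of these values. The transformation behind the values is not stated, so these levels may differ from the counts themselves. Genes of little signal lay at levels of their own, with Tspan10 at 2.42 to 2.48 and Tspan11 at 0.28 to 0.31 over the 9 libraries. In bulk libraries such as these, fewer cells of a type and less RNA per cell cannot be told apart. Among the 9 libraries, old replicate 3 stood apart. It lay at 29.9 on the first principal component, which held 34.7% of the variance, while the other 8 libraries lay between -14.4 and 5.90. Its residual SD over all tested genes was 0.202 (log2), and that of the others 0.0717 to 0.149. The summed normalized counts of 11 microglial markers were the highest of the marker lists examined, at 1924010 to 2208000 in young, 1717380 to 1933630 in middle-aged and 1754100 to 1938380 in old libraries. The 12 neutrophil markers were also abundant, with sums of 319610 to 552516 in young, 482163 to 1044970 in middle-aged and 264409 to 536294 in old libraries.

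The promoters of 4 members are shown because Cd9 and Cd63 are the members whose expression rose in old against young libraries, while Cd82 and Tspan4 are the members with the most alike values over the libraries. Each sequence is the RefSeq window on GRCm38.p6 from 250 bases before to 50 after a transcript's start, read along the gene's own strand (for Cd82 and Tspan4, the first of several windows), and capitals mark any match to 5 motifs searched on both strands. These were the GC box GGGCGG, the E-box CACGTG of TFEB and MITF, the AP-1 site TGANTCA, the core GAGGAAG of sites of the PU.1 type and the TATA box TATAAA.
Cd9 promoter (chr6:125494711-125495010, minus strand): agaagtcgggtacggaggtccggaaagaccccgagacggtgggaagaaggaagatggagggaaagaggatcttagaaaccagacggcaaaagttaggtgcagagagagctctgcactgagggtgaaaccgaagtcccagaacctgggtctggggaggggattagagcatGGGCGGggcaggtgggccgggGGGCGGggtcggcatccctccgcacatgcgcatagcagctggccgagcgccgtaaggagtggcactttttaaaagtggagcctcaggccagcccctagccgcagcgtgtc
Cd63 promoter (chr10:128909095-128909394, plus strand): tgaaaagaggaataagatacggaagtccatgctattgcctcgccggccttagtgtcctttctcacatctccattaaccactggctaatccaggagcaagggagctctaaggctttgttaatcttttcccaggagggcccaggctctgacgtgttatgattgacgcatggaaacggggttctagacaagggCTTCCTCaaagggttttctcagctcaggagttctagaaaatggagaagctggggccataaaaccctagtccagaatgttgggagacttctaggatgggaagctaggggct
Cd82 promoter (chr2:93462901-93463200, minus strand): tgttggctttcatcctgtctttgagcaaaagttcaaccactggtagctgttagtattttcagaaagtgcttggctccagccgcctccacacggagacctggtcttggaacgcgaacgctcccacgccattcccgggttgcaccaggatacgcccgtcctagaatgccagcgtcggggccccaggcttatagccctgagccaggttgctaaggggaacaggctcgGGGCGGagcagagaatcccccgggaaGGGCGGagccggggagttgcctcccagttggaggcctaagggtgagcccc
Tspan4 promoter (chr7:141474986-141475285, plus strand): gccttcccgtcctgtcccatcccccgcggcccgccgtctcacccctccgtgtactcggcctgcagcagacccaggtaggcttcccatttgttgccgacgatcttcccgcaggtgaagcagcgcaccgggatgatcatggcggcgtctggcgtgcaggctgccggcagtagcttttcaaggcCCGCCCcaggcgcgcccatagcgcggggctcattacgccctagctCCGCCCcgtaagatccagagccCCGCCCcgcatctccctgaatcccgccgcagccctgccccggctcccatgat
The Cd9 window holds 2 GC boxes and the Cd63 window none, and the Cd63 window holds 1 PU.1-type core, read on the opposite strand, where the Cd9 window has none. The Cd63 window lies inside the gene as the mouse annotation GENCODE M21 draws it, from chr10:128900989 on. The annotated start of Cd63 was thus not searched, unlike that of Cd9. The Cd82 window holds 2 GC boxes and the Tspan4 window 3. No E-box was matched in any of these 4 windows. All 10 members had at least 1 window in the RefSeq table, 16 in all, of which 8 held a GC box, 6 a PU.1-type core, 2 the E-box, 1 the AP-1 site and 1 a TATA box. Over all 32851 windows of the table, 35.7% held a GC box, 13.6% a PU.1-type core, 7.2% the E-box, 7.8% the AP-1 site and 13.6% a TATA box. These matches describe the letters of the windows and say nothing of binding.

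The members covered a wide range of expression. Per kilobase of the principal transcript, which puts genes of different length on one scale, Cd81 had the highest level, 134675 normalized counts per kilobase as the mean of the 9 libraries, and Tspan3 the lowest, 596, a ratio of 226. Cd9 followed Cd81 at 76489 and Cd53 at 72659, and the library values of Cd9 and Cd53 overlapped. Cd63 (20229) and Cd37 (18772) came next, followed by Tspan14 (10916), Cd82 (10249) and Tspan4 (7260), and neighbours in this order overlapped within both of these sets. Cd151 (1014) and Tspan3 lay below all other members and overlapped each other. The order depends on the length used. Per kilobase of all exons merged, Cd53 was first, Cd81 second, Cd9 the third and Cd63 only 7th.

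**Figure D1:**
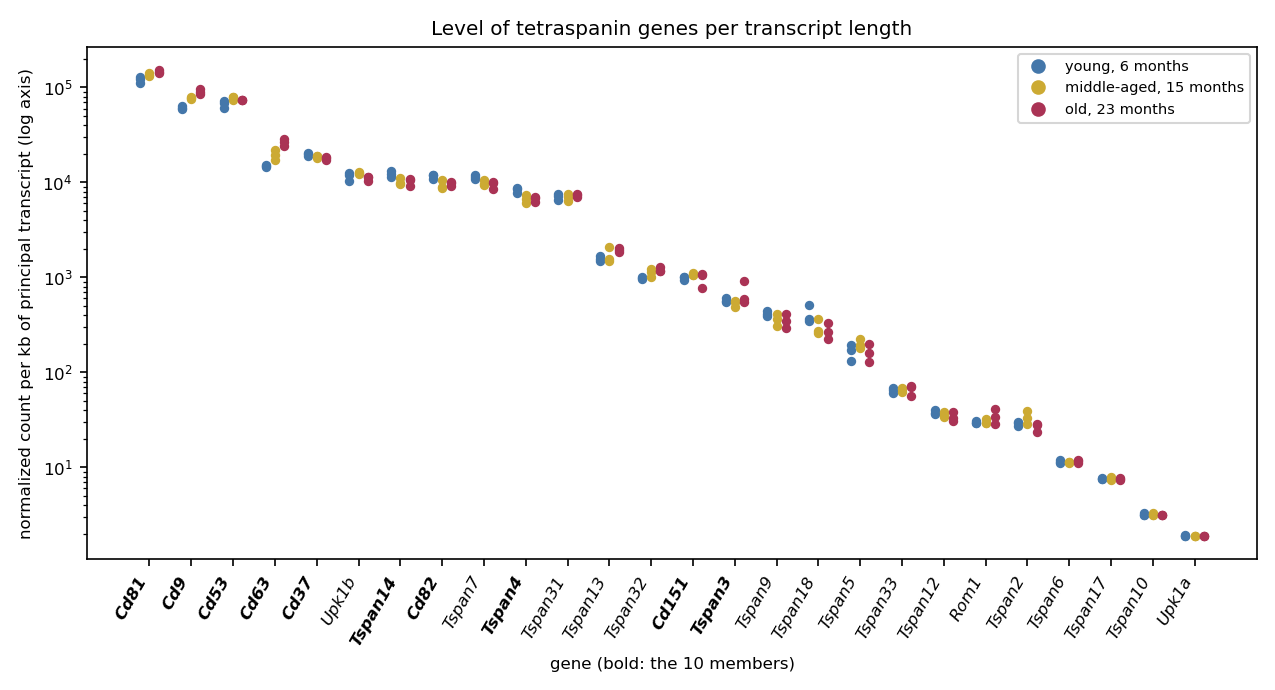
Level of the 10 members (bold) and the other tetraspanin genes of the table in each of the 9 libraries (points, coloured by age), in normalized counts per kilobase of principal transcript on a log axis. Of the members, Cd81 is the highest and Cd151 and Tspan3 are the lowest, and the points of Cd63 lie in age order.

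The place of Cd63 in this order moved with age. Cd63 had 14586 to 15292 normalized counts per kilobase in young, 17257 to 21819 in middle-aged and 24101 to 28309 in old libraries. Cd37, its neighbour, had 19094 to 20539 in young, 18058 to 18922 in middle-aged and 17035 to 18389 in old libraries. Cd63 was thus below Cd37 in every young library and above it in every old one, also when both were divided by the length of all exons merged.

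The main comparison asks which of these genes differ between the oldest and the youngest microglia. In old against young libraries, Cd9 and Cd63 rose, to 1.49-fold and 1.77-fold, and 0 of the 10 members fell. The other 8 did not pass the test. Cd81 was 1.22-fold as high in old libraries and Tspan4 0.807-fold, neither past the threshold. The 2 members called, both higher, compare with 2% of all 14955 genes called in either direction, 1.7% called higher and 0.301% called lower (limma moderated test, Benjamini-Hochberg adjusted p under 0.05). The old and young libraries did not overlap in 8 of 10 members, 4 higher and 4 lower, against 24.5% of all genes, 12.2% higher and 12.3% lower. At an unadjusted limma p under 0.05 there were 6 members, against 16.8% of all genes. The authors' deposited table called 5 members for this pair of ages, Cd9, Cd63 and Cd81 higher and Cd82 and Tspan4 lower, where it called 7.62% of its genes, 4.72% higher and 2.9% lower. The median log2 difference was 0.05 over the members and -0.01 over all genes tested.

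Cd9 encodes a surface tetraspanin that binds integrins and the immunoglobulin-family proteins IGSF8 and PTGFRN. The gene lies on chromosome 6 of GRCm38, at chr6:125460266-125494791 on the minus strand. Its log2 values were 16.14, 16.25 and 16.19 in the young libraries, 16.58, 16.53 and 16.51 in the middle-aged ones and 16.76, 16.68 and 16.86 in the old ones. The 3 ages formed 3 separate groups in age order, with no overlap between any of them. The share of all genes with this order was not counted. Old libraries lay wholly above middle-aged ones in 6.47% of all genes tested. Means were 74889 normalized counts in young, 95304 in middle-aged and 111593 in old libraries. Old libraries exceeded young ones by 0.57 ± 0.07 on the log2 scale (SE, n = 3 per group, limma adjusted p = 0.00226), a 1.49-fold difference with a 95% interval of 1.34 to 1.66. Without old replicate 3 the difference was 0.53 with limma adjusted p = 0.00632. The authors' deposited table gives Cd9 a larger log2 fold change of 0.711 for these ages.

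Cd63 encodes the tetraspanin of late endosomes, lysosomes and released vesicles, and lies at chr10:128900989-128912822 on the plus strand. Its log2 values were 14.00, 14.05 and 13.98 in the young libraries, 14.56, 14.39 and 14.22 in the middle-aged ones and 14.94, 14.71 and 14.85 in the old ones. Here too every old library was above every middle-aged one and every middle-aged library above every young one, while the middle-aged libraries were spread more widely than the young (SD 0.17 in middle-aged and 0.04 in young libraries). Means were 16491 normalized counts in young, 21591 in middle-aged and 29220 in old libraries. The difference between old and young libraries was 0.82 ± 0.10 (SE, n = 3 per group, limma adjusted p = 0.0022), 1.77-fold with a 95% interval of 1.52 to 2.06. It was the largest difference of the 10 members. Without old replicate 3 it was 0.81 with limma adjusted p = 0.00797. The log2 fold change of Cd63 in the authors' deposited table is larger, at 1.02.

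The mouse annotation GENCODE M21 holds processed pseudogenes of both, Cd9-ps and Cd63-ps, and 2 gene models on the opposite strand overlap Cd9. How reads shared by such copies were assigned, and whether counting used the strand, is not stated in the sources, so a share of these values could come from them.

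Cd81 encodes a close relative of CD9 that also acts at the cell surface. It had log2 values of 17.37, 17.59 and 17.52 in young, 17.75, 17.65 and 17.63 in middle-aged and 17.75, 17.76 and 17.83 in old libraries. Every old library lay above every young one, and the old and middle-aged libraries overlapped. The difference of old from young was 0.28 ± 0.07 (SE, n = 3 per group) and was not called (limma adjusted p = 0.0769). The authors' deposited table gives Cd81 a log2 fold change of 0.339 with adjusted p = 0.0352, under its threshold of 0.05.

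**Figure D2:**
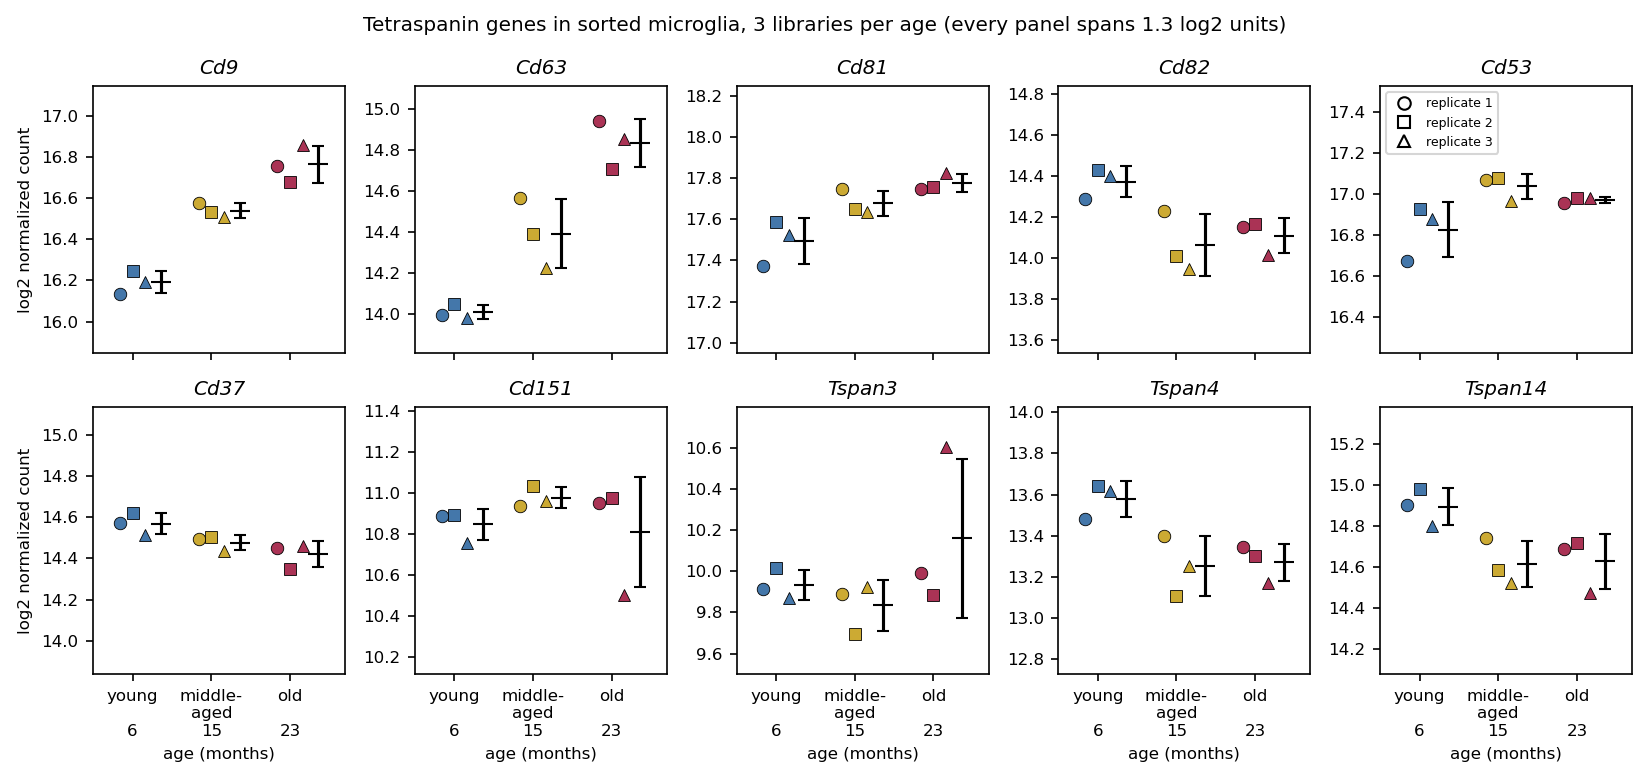
Log2 normalized count of each member in each library (points, with a symbol per replicate number) at 6, 15 and 23 months, with the mean and SD of 3 libraries beside them; every panel spans the same number of log2 units. Cd9 and Cd63 step up at each age, Cd82, Cd37, Tspan4 and Tspan14 are lower at both later ages, and old replicate 3 stands alone in Cd151 and Tspan3.

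In 4 members, Cd82, Cd37, Tspan4 and Tspan14, values in every middle-aged and every old library were lower than in any young one, and the later ages overlapped. This was so in 3.58% of all genes tested, and in Tspan7 among the other tetraspanins. The pattern was described after the values of these members were seen, so the share stands beside it and is no test. Cd82 encodes a tetraspanin known as a suppressor of metastasis in human tumours. It had log2 values of 14.29, 14.43 and 14.40 in young, 14.23, 14.01 and 13.94 in middle-aged and 14.15, 14.16 and 14.01 in old libraries. Old libraries differed from young ones by -0.26 ± 0.10 (SE, n = 3 per group, limma adjusted p = 0.198). This was not called, and the 95% interval of the fold was 0.72 to 0.964.

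Tspan4, which is known for the assembly of migrasomes, vesicle-bearing structures that migrating cells leave behind, had log2 values of 13.48, 13.64 and 13.62 in young, 13.40, 13.11 and 13.25 in middle-aged and 13.34, 13.30 and 13.17 in old libraries. The difference of old from young was -0.31 ± 0.10 (SE, n = 3 per group, limma adjusted p = 0.152). Tspan14 encodes a member of the TspanC8 group, which guides the protease ADAM10 to the cell surface. It had log2 values of 14.90, 14.98 and 14.80 in young, 14.74, 14.59 and 14.52 in middle-aged and 14.69, 14.72 and 14.48 in old libraries, and differed by -0.27 ± 0.10 between old and young (SE, n = 3 per group, limma adjusted p = 0.195). Neither was called here. In the authors' deposited table Cd82 (log2 fold change -0.332, adjusted p = 0.0436) and Tspan4 (-0.392, adjusted p = 0.0207) passed its threshold for old against young. Tspan4 overlaps Chid1, a gene on the opposite strand, and its reads cannot be told apart from that gene's if counting ignored the strand.

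Cd53 and Cd37 are the leukocyte tetraspanins, and CD37 is known to bind the fungal receptor dectin-1, which Clec7a encodes. Cd53 had log2 values of 16.67, 16.93 and 16.88 in young, 17.07, 17.08 and 16.97 in middle-aged and 16.95, 16.98 and 16.98 in old libraries. Cd37 had 14.57, 14.62 and 14.52 in young, 14.49, 14.50 and 14.44 in middle-aged and 14.45, 14.35 and 14.46 in old libraries. The old libraries lay above the young in Cd53 and below them in Cd37, without overlap in either gene, but the gaps were narrow. The differences of old from young were 0.14 ± 0.08 for Cd53 (limma adjusted p = 0.383) and -0.15 ± 0.07 for Cd37 (limma adjusted p = 0.35), with SE and n = 3 per group. Without young replicate 1 the difference of Cd53 was 0.07. Cd37 overlaps Tead2 on the opposite strand.

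Cd151, whose product binds laminin-binding integrins, and Tspan3 were the 2 least abundant members, and both turned on 1 library. Cd151 had log2 values of 10.89, 10.89 and 10.76 in young, 10.94, 11.03 and 10.96 in middle-aged and 10.95, 10.97 and 10.50 in old libraries. Tspan3 had 9.91, 10.02 and 9.87 in young, 9.89, 9.69 and 9.92 in middle-aged and 9.99, 9.89 and 10.60 in old libraries. Old replicate 3, the library that stood apart over all genes, was the lowest of the 9 in Cd151 and the highest in Tspan3. The difference of old from young was -0.04 ± 0.13 for Cd151 (limma adjusted p = 0.908) and 0.12 without old replicate 3. For Tspan3 it was 0.23 ± 0.17 (limma adjusted p = 0.536) and 0.0048 without that library.

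The earlier step, middle-aged against young, asks how much of this is present by 15 months. In this step 0 of the 10 members passed the limma test, where 0.114% of all genes were called, all of them higher. At an unadjusted limma p under 0.05 there were 7 members, against 11.4% of all genes, and the authors' deposited table called 3, Cd9 (log2 fold change 0.426, adjusted p = 0.000286) and Cd63 (0.451, adjusted p = 0.0139) higher and Tspan4 (-0.384, adjusted p = 0.0461) lower. That table called 5.78% of its genes for this pair of ages, 3.26% higher and 2.53% lower. The middle-aged and young libraries did not overlap in 9 of 10 members, all but Tspan3, against 21.6% of all genes. Of these members 5 were higher and 4 lower in middle-aged libraries, against 11.6% and 10% of all genes.

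In the fit here, Cd9 differed by 0.35 ± 0.07 between middle-aged and young libraries (limma adjusted p = 0.113) and Cd63 by 0.38 ± 0.10 (limma adjusted p = 0.205), with SE and n = 3 per group. Cd81 (0.18) and Cd53 (0.21) also had higher values in middle-aged libraries. Of the 4 members with lower values in middle-aged libraries, Cd82, Tspan4 and Tspan14 had log2 differences of -0.31, -0.33 and -0.28, with limma adjusted p between 0.249 and 0.302. Cd37 had a smaller one of -0.09 (limma adjusted p = 0.712). These comparisons share the young libraries, so their values are set side by side and not as independent results.

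The later step, old against middle-aged, left Cd9 and Cd63 as the members whose libraries did not overlap, 2 of 10, both higher, against 12.9% of all genes in either direction and 6.47% higher. Cd9 was 0.23 ± 0.07 higher on the log2 scale in old than in middle-aged libraries (limma adjusted p = 0.317) and Cd63 was 0.44 ± 0.10 higher (limma adjusted p = 0.173), with SE and n = 3 per group. Neither was called. In all, 0 of 10 members passed the limma test, against 0.174% of all genes in either direction and 0.16% higher, and the same 2 members had an unadjusted limma p under 0.05, against 10.2% of all genes. The authors' deposited table called 0 members at this step, with adjusted p = 0.0506 for Cd63 and 0.245 for Cd9, and 1.32% of its genes. The log2 differences of Cd82, Tspan4 and Tspan14 at this step were 0.05, 0.02 and 0.01.

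**Figure D3:**
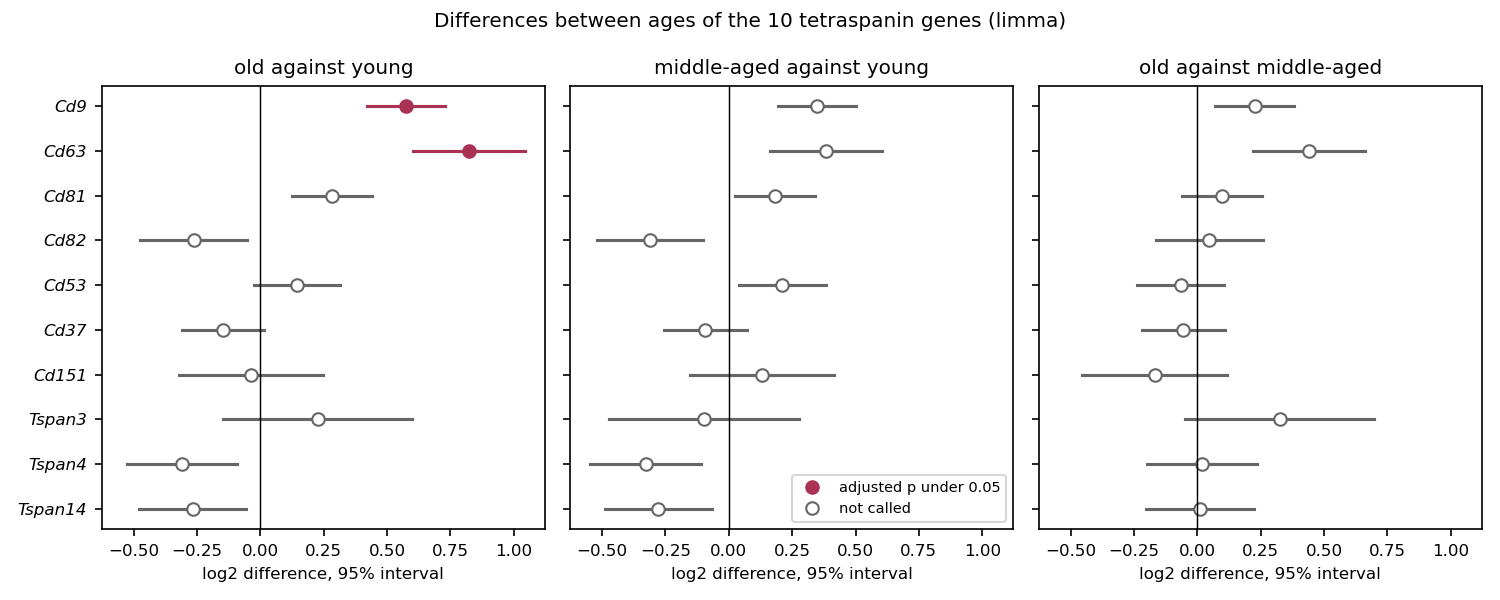
Log2 difference of each member in the 3 comparisons of ages, as points with 95% intervals from limma; filled points have an adjusted p under 0.05. Cd9 and Cd63 in old against young are the filled points, and the intervals of Cd82, Tspan4 and Tspan14 lie below 0 at both later ages and around 0 in old against middle-aged.

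The difference between the later and the earlier step was tested itself, as old minus 2 times middle-aged plus young. Of the 10 members 0 passed the limma test, as did 0% of all genes, and 0 members had an unadjusted limma p under 0.05. Cd82 had the smallest p (0.36 ± 0.16, limma adjusted p = 0.636), followed by Cd53 (-0.28, limma adjusted p = 0.654) and Tspan4 (0.35, limma adjusted p = 0.666). For Cd9 the value was -0.12 (limma adjusted p = 0.839) and for Cd63 0.06 (limma adjusted p = 0.964). Steps of unequal size were not detectable for any member with these libraries.

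Differences between 2 members within a library show how the members moved relative to each other. They are free of library scaling only if the values are plain log2 counts, and the transformation is not stated. The pairs were chosen after their values were seen and are given without a test. Cd63 minus Cd82 was -0.36 ± 0.07 in young, 0.33 ± 0.05 in middle-aged and 0.72 ± 0.16 in old libraries (SD, n = 3 each). Before division by length, Cd63 thus had the lower count of the pair in every young library and the higher count in every later one. This crossing depends on length. Per kilobase of principal transcript Cd63 was above Cd82 in every young library too, at 14586 to 15292 against 10955 to 12102. Per kilobase of all exons merged it was below Cd82 there, at 4393 to 4606 against 6650 to 7346. Cd9 minus Cd82 was 1.82 ± 0.03, 2.48 ± 0.12 and 2.66 ± 0.17 at the same ages. Cd63 minus Cd9 was -2.18 ± 0.04 in young, -2.15 ± 0.13 in middle-aged and -1.93 ± 0.10 in old libraries. Tspan14 minus Cd82 stayed within 0.52 to 0.56 in the means of the 3 ages, and Tspan4 minus Cd82 within -0.84 to -0.79.

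**Figure D4:**
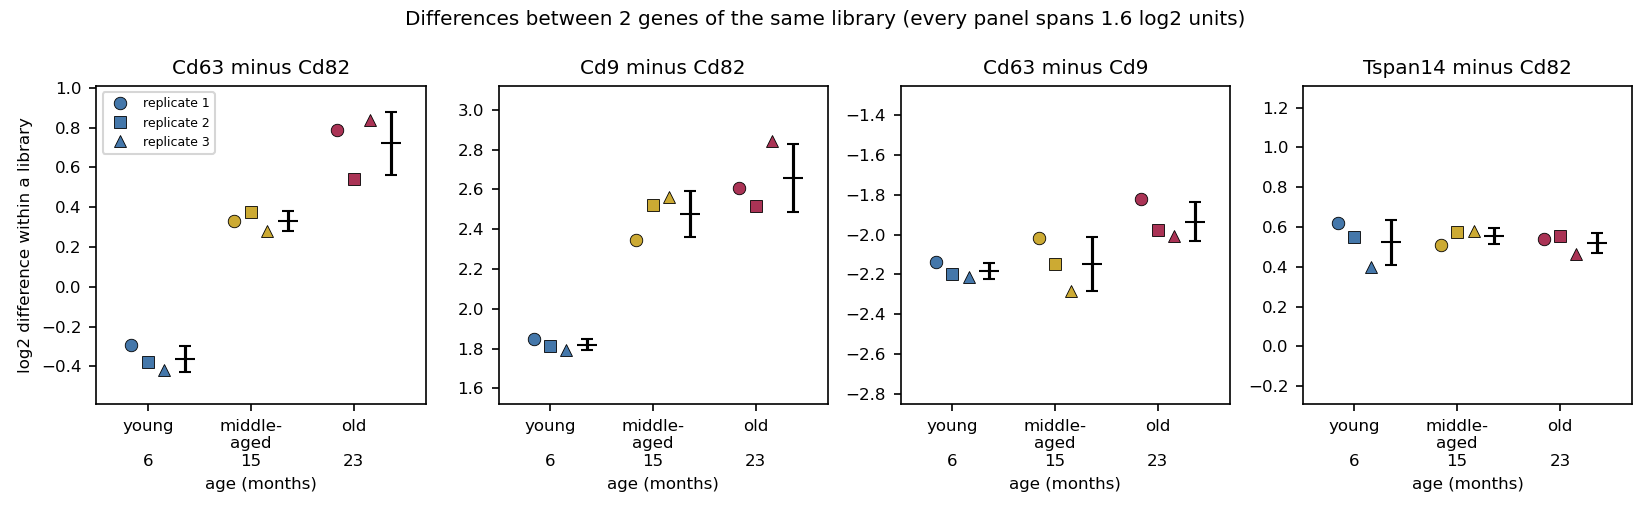
Log2 differences between pairs of members within each library at 6, 15 and 23 months, with 1 point per library and the mean and SD of 3 beside them. Cd63 minus Cd82 crosses 0 between the young and the middle-aged libraries, while Tspan14 minus Cd82 stays near one level. Values are not divided by transcript length, and whether a difference crosses 0 depends on length.

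Likeness over the 9 libraries was measured as the root mean square difference of 2 genes' log2 values after centring each on its own mean. A small number means a like course, but the number is also small where neither gene varied much. Of the member pairs, Cd82 and Tspan4 were the most alike (0.0554), followed by Cd82 and Tspan14 (0.0626) and by Cd81 and Cd53 (0.08). Cd9 was nearest to Cd81 (0.127) and Cd63 nearest to Cd9 (0.136). Cd63 and Tspan4 were the least alike (0.479). Over all tested genes with a name, the 5 nearest to Cd9 were Rps3a2 (0.0607), Gabarap (0.0618), Rps4x (0.0619), Rpl7 (0.0667) and Ell2 (0.0707), against 0.242 for the values of Cd9 around their own mean. Those nearest to Cd63 were Prdx1 (0.0579), Gas2l3 (0.0791), Anxa5 (0.0942), Plau (0.0956) and Lgals3bp (0.106), against 0.35 for Cd63 around its mean. Rps3a2 and other ribosomal protein genes have near-identical copies, and their values are uncertain where counting could split reads.

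Of 21 other tetraspanin genes listed, 18 were in the table and 14 were tested. Of these 0 were called by limma in any of the 3 comparisons. At an unadjusted limma p under 0.05 there were 4 in old against young, 2 in middle-aged against young and 2 in old against middle-aged, of 14 each, where the shares over all genes were 16.8%, 11.4% and 10.2%. The authors' deposited table called 2 of them higher in old against young, where it called 7.62% of its genes, and 0 in the other comparisons. Tspan18 had the smallest p in old against young, with log2 values of 9.74, 9.95 and 10.27 in old and 10.89, 10.34 and 10.40 in young libraries and a difference of -0.56 ± 0.19 (SE, n = 3 per group, limma adjusted p = 0.172). Its difference between middle-aged and young libraries was -0.43 (limma adjusted p = 0.425), and -0.26 without young replicate 1. The gene with the smallest p in old against middle-aged was Tspan2 (-0.32, limma adjusted p = 0.432), at -0.19 without middle-aged replicate 2. Their median difference in old against young was -0.02. Upk1b, a uroplakin better known from the bladder lining, was the most abundant of them, at 11793 normalized counts per kilobase, a level between those of Cd37 and Tspan14.

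Proteins that tetraspanins gather were examined through 4 lists. Of 18 tested membrane partners, such as integrins and immunoglobulin-family proteins, 2 rose and 0 fell by limma in old against young libraries. Of all genes 1.7% rose and 0.301% fell. The median log2 difference was 0.19 against -0.01 over all genes. The 2 were Clec7a, the gene of the CD37 partner dectin-1, and Itga5, the fibronectin receptor subunit. At an unadjusted limma p under 0.05 there were 8 of the 18, against 16.8% of all genes. The authors' deposited table called 5 of the 18 higher and 1 lower for these ages, where it called 4.72% and 2.9% of its genes. Clec7a had log2 values of 12.80, 12.84 and 12.79 in young, 14.20, 13.89 and 13.57 in middle-aged and 14.65, 14.72 and 14.59 in old libraries. It was 3.59-fold higher in old than in young libraries (log2 1.85 ± 0.13, SE, n = 3 per group, limma adjusted p = 7.85e-05). Its 3 ages did not overlap, while Cd37 had values below the young ones in every later library. In middle-aged against young libraries Clec7a was the 1 partner called (log2 1.08, limma adjusted p = 0.0189). It lost that call without any one of the young libraries and with only the 2 ages fitted, with limma adjusted p up to 0.124.

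Itga5 had log2 values of 11.12, 11.24 and 11.27 in young, 11.15, 11.26 and 11.14 in middle-aged and 11.85, 11.69 and 12.08 in old libraries. The old libraries lay above all others, and the middle-aged and young ones overlapped. The difference of old from young was 0.66 ± 0.11 (limma adjusted p = 0.0161) and that of old from middle-aged 0.69 ± 0.11 (limma adjusted p = 0.0492), with SE and n = 3 per group. The call against young libraries was lost without any one of the young libraries, without old replicate 1 and with only the 2 ages fitted. In these fits the limma adjusted p was up to 0.0872. The call against middle-aged libraries was lost whichever library was left out, and it held under 7 of 20 alternatives. It was also lost without the filter, without the variance trend, with a replicate block and with only the 2 ages fitted. Itga5 was the 1 partner called in old against middle-aged libraries.

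None of the other 3 lists had a gene called in any comparison by limma. Of 12 sheddase and gamma-secretase genes, which include Adam10, the partner of the TspanC8 group, the lowest p in old against young was that of Rhbdf2 (0.46, limma adjusted p = 0.205), whose old and young libraries overlapped and whose difference was 0.26 without old replicate 3. In middle-aged against young libraries it was that of Ncstn (-0.26, limma adjusted p = 0.278), and in old against middle-aged that of Adam17 (0.32, limma adjusted p = 0.267). Of these 12 genes, 1, 2 and 2 had an unadjusted limma p under 0.05 in these 3 comparisons, in the order old against young, middle-aged against young and old against middle-aged, against 16.8%, 11.4% and 10.2% of all genes. The authors' deposited table called 0, 0 and 1 of them, against 7.62%, 5.78% and 1.32% of its genes.

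Of 27 tested genes of the machinery that forms and releases extracellular vesicles, 6, 1 and 7 had an unadjusted limma p under 0.05 in the same order, against 16.8%, 11.4% and 10.2% of all genes. The authors' deposited table called 3, 1 and 0, against 7.62%, 5.78% and 1.32% of its genes. Arf6, a small GTPase of membrane recycling, had the lowest p in old against young (0.31, limma adjusted p = 0.141) and in middle-aged against young libraries (0.50, limma adjusted p = 0.106). Sdc2, a syndecan gene, had it in old against middle-aged (-0.40, limma adjusted p = 0.173). The medians of this list were 0.01 in old against young, 0.01 in middle-aged against young and -0.02 in old against middle-aged libraries.

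Of 15 genes of late endosome and lysosome membranes, the compartment of CD63, and the proteins that serve them, 4, 1 and 3 had an unadjusted limma p under 0.05 in that order, against 16.8%, 11.4% and 10.2% of all genes. The authors' deposited table called 1, 0 and 0 of them, against 7.62%, 5.78% and 1.32% of its genes. Npc2, the cholesterol-binding protein of the lysosome, had log2 values of 16.30, 16.24 and 16.09 in old and 15.72, 15.85 and 15.78 in young libraries, with no overlap and a difference of 0.43 ± 0.10 (SE, n = 3 per group, limma adjusted p = 0.0629). Laptm5 had the lowest p in middle-aged against young (-0.19, limma adjusted p = 0.316) and Cd68 in old against middle-aged libraries (0.28, limma adjusted p = 0.269). The median of this list in old against young was 0.02.

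Of the 11 microglial markers, C1qa was called higher in old against young libraries (0.68, limma adjusted p = 0.00733). Fcrls (-0.39, limma adjusted p = 0.0494) and Siglech (-0.37, limma adjusted p = 0.0439) were called lower. Old and young libraries did not overlap in 8 of the 11, 3 higher and 5 lower, against 24.5% of all genes. Markers of other cell types also moved with age beside the differences of the members. The summed normalized counts of 12 border macrophage markers were 93655 to 119450 in old against 142614 to 152340 in young libraries. Stab1 (-0.40, limma adjusted p = 0.0496) and Mgl2 (-0.62, limma adjusted p = 0.0327) were called lower. Ms4a7 went the other way without overlap (0.25) and was not called. The sums of 10 oligodendrocyte markers were 7256 to 10164 in old against 6527 to 7217 in young libraries, with Opalin below the filter. Those of 10 T and NK cell markers were 1862 to 2314 in old against 1506 to 1746 in young libraries, and Cd8a was called higher (0.25, limma adjusted p = 0.044). In these 3 lists the sums of old and young libraries did not overlap. The same held for 5 oligodendrocyte precursor markers, with sums of 416 to 471 in old and 216 to 228 in young libraries and with Olig1, Olig2 and Sox10 below the filter, and for 7 astrocyte markers, with sums of 16661 to 18561 in old and 20662 to 22008 in young libraries. Each of these last 2 sums turned on 1 gene. Cspg4 rose by 1.31 ± 0.10 on the log2 scale in old libraries (SE, n = 3 per group, limma adjusted p = 8.69e-05), while Pdgfra, the other precursor marker tested, overlapped (-0.08). Slc1a3 (-0.31, limma adjusted p = 0.0912) was the 1 astrocyte marker of 7 whose old and young libraries did not overlap. The sums of neutrophil, monocyte, endothelial and pericyte markers overlapped between old and young libraries, although 2 of 8 monocyte markers, Plac8 (2.04-fold, limma adjusted p = 0.0223) and Fn1 (1.98-fold, limma adjusted p = 0.00429), and 1 of 8 endothelial markers, Flt1 (2.45-fold, limma adjusted p = 0.00103), were called higher in old libraries. The sums of neuronal markers were 373 to 400 in old and 401 to 428 in young libraries, with Rbfox3, Slc17a7 and Gad1 below the filter. The part of these cell types in the differences of Cd9, Cd63 and the other members was not tested.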

How the data were processed

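Microglia were sorted by flow cytometry and pooled over 3 mice before a kit for small amounts of RNA was used, per the labels' protocols. Per the submitters' processing notes, CASAVA, cutadapt 1.13, STAR 2.5.3 and DESeq2 1.16.1 were used with the mm10 build; no source states the read counter, its strand setting or the annotation. Although the deposited table carries normalized counts in its name, it holds log2 values (-2.14 to 20.1), which were used as deposited. The transformation behind them is not stated, and their folds can be smaller than those of the authors. The tables of comparisons that the authors deposited hold, per the file headers, the base mean as a signal, the log2 fold change, a test statistic (score) and both a p-value and its adjusted form, with fold changes positive for higher at the later age. Whole reads were not recoverable, so depth and counting error are unknown.

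A model with a group for each of the 3 ages and a variance trend was fitted with limma 3.58.1 (R 4.3.3) to 14955 genes with a log2 value of at least 3.32 in at least 3 libraries. Moderated tests were two-sided, with Benjamini-Hochberg adjustment over all genes tested and a threshold of 0.05. The script was tested on simulated data. With 3 libraries against 3, an exact permutation test has 0.1 as its smallest p, so calls rest on the pooled spread of the model. Levels per kilobase are 2 to the power of the deposited value divided by the length of the principal transcript in GENCODE M21 on GRCm38, which holds 99.7% of the table's symbols. The members and lists were chosen with earlier results of these data known, so that lists are described by counts and medians without a test. One list of markers is not reported here. From each list the genes named are the called ones, up to 4, or the 1 with the smallest p. Promoter windows are from RefSeq on GRCm38.p6. Replicate numbers do not pair the libraries. Alternatives were other filters, pseudocounts and scalings, other variance settings, weights for libraries, a replicate block, fits of 2 ages, and fits without each library in turn. Figures were drawn with matplotlib 3.10.9.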

Additional observations from a re-analysis of the deposited data

How the results depend on the processing

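Cd9 and Cd63 were called higher in old against young libraries under all 20 alternatives, with log2 differences of 0.50 to 0.62 for Cd9 and 0.77 to 0.89 for Cd63. The number of members called there was 2 in each of the 9 fits without 1 library and 4 with library weights, which added Cd81 as higher and Tspan4 as lower. For middle-aged against young it was 0 in each fit without 1 library and 2 with library weights, Cd9 and Cd63. For old against middle-aged and for the difference between the steps it was 0 under all alternatives run. Over all genes, old against young gave 299 calls (83 to 322 without 1 library, 83 to 122 of these without a young one, and 1609 with library weights), middle-aged against young 17 (4 to 49 without 1 library, 312 with library weights) and old against middle-aged 26 (3 to 23 without 1 library, 62 with library weights and 0 with only those ages fitted).

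Signs turned round for differences near 0. Cd151 in old against young was 0.11 with library weights and between -0.12 and 0.12 without 1 library. In old against middle-aged, leaving out 1 library gave -0.0112 to 0.13 for Cd82, -0.0356 to 0.0872 for Tspan14 and -0.0533 to 0.0913 for Tspan4. In the difference between the steps Cd37 was -0.0074 with quantile normalization and -0.0041 to 0.0728 without 1 library, and Cd63 was -0.11 to 0.23 without 1 library. The causes were not tested. Deviations of libraries with the same replicate number had correlations of -0.242 to 0.234, so the numbers were not taken as pairs; with a replicate block, 2, 0 and 0 members were called in old against young, middle-aged against young and old against middle-aged, and 185, 11 and 14 genes in all. With 3 libraries per age and no read totals, differences as small as those of Cd53 or Cd37 cannot be resolved.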

Other observations

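Cd151 and Tspan4 lie next to each other on chromosome 7, 3766 bases apart and on the same strand, and their values did not run alike. Tspan4 minus Cd151 within a library was 2.73 ± 0.13 in young, 2.27 ± 0.19 in middle-aged and 2.46 ± 0.18 in old libraries on the log2 scale (SD, n = 3 each). The pair was chosen after its values were seen, and no test was made. Cd81 and Tspan32 lie on the same chromosome, 33094 bases apart, and genes between them were not looked for. Tspan32 differed by 0.28 and Cd81 by 0.28 on the log2 scale between old and young libraries, neither of them called by limma. In both genes every old library lay above every young one, as was so in 12.2% of all genes tested. A link between the values of these 2 genes was not tested.

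Cd53 minus Cd81 within a library was -0.67 ± 0.03 in young, -0.64 ± 0.06 in middle-aged and -0.80 ± 0.04 in old libraries (SD, n = 3 each, log2 scale), and every old library lay below all the others. This difference too was chosen after its values were seen and was not tested.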
